A study of Mus musculus with 24 samples.

Results

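The enzymes that attach glucuronic acid, glutathione or sulfate to other molecules were examined in livers of mice with diet-induced fatty liver disease. They were taken as all genes of the deposited long RNA table whose symbols fit a rule. It took symbols that begin Ugt1a, Ugt2a, Ugt2b or Ugt3a, or that begin with Sult and a number. It also took Mgst1, Mgst2 and Mgst3, and symbols that carry a glutathione S-transferase class letter after Gst. The rule found 62 of the 18314 genes: 21 UDP-glucuronosyltransferases (UGTs), 26 glutathione S-transferases including the microsomal enzymes (GSTs), and 15 cytosolic sulfotransferases (SULTs). After genes with low counts were removed, 49 of the 62 were tested, of 13832 genes in all: 19 UGTs, 22 GSTs and 8 SULTs.

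Conjugation makes lipophilic compounds water soluble, so that they can leave the hepatocyte in bile or blood. UGTs sit in the endoplasmic reticulum and use UDP-glucuronate to conjugate bilirubin, steroids, bile acids and drugs. GSTs join the thiol of glutathione to electrophiles, several of them being targets of the oxidative stress factor NRF2, and SULTs move sulfate from the activated donor PAPS to phenols, steroids and bile acids. Many of these genes are transcribed at high levels in hepatocytes and answer to the receptors PXR, CAR, FXR and PPARα.

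The groups were mice on a high-fat diet that were given the Huatanqushihuoxue Formula, a herbal preparation (HFD plus HQHF), mice on the high-fat diet alone (HFD), and mice on a normal diet (control). All were male C57BL/6 mice with the wild-type genotype, the formula followed 12 weeks on the diet and was given by gavage, and the study kept 9 mice per group, of which 4 per group gave the long RNA libraries. The labels give neither the age of the mice nor the HQHF dose behind these libraries. The series asks how the formula acts in this disease model, with the HFD group as its reference and the control group as the healthy one. Of the 12 libraries, HFD plus HQHF 3 and control 2 were left out of the fits, because the albumin gene Alb stood at 0.743 CPM (counts for every 1000000 in the library) in HFD plus HQHF 3 and at 46.4 CPM in control 2, against 35050 to 92210 CPM in the other 10. The fat cell gene Adipoq stood at 1254 CPM in HFD plus HQHF 3 and at 4543 CPM in control 2. This left HFD plus HQHF 1, 2 and 4, HFD 1 to 4, and control 1, 3 and 4, with 36198931 to 46454404 counts each. Among these 10, HFD 3 held 41.2 CPM of Adipoq, and control 1 held 592.6 CPM of the pancreatic lipase gene Pnlip. Together the 62 genes took 0.677% to 1.54% of the counts of a library.

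In HFD livers 19 of the 49 tested enzymes were lower and 0 were higher than in control livers, at a Benjamini-Hochberg adjusted p under 0.05 in edgeR's quasi-likelihood test, which is 38.8% against 26.2% of all genes tested. Of all genes, 16.3% were higher and 9.89% lower. In HFD plus HQHF livers 15 of the 49 were higher and 3 lower than in HFD livers, which is 36.7% against 18.9% of all genes, 7.85% being higher and 11.1% lower. Between HFD plus HQHF and control livers 0 of the 49 were called, with 3 at an unadjusted p under 0.05. DESeq2 called 1 of them, Ugt1a5. In that comparison 0% of the 13832 genes were called by edgeR, 1008 had an unadjusted p under 0.05, and DESeq2 called 72. The median log2 fold change of the 49 was -0.88 in HFD against control and 0.54 in HFD plus HQHF against HFD, where the medians of all genes were 0.06 and -0.07. Between HFD plus HQHF and control it was -0.27, against 0.02 for all genes. The HFD libraries enter both of the first comparisons, so a chance low or high value in them moves both fold changes in opposite directions.

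The groups did not overlap for 31 of the 49 in HFD against control, against 36.7% of all genes, and for 23 of the 49 in HFD plus HQHF against HFD, against 30.7% of all genes. Between HFD plus HQHF and control 12 of the 49 did not overlap, against 15.1% of all genes. By family, 9 of 19 UGTs, 6 of 22 GSTs and 4 of 8 SULTs were lower in HFD than in control, with medians of -1.05, -0.49 and -1.27. These are 47.4%, 27.3% and 50% of each family, against 26.2% of all genes called in either direction and 9.89% called lower. The share of GSTs called in either direction was thus near that of all genes. Against HFD, 6 of 19 UGTs and 4 of 8 SULTs were higher with HQHF and 0 were lower, with medians of 0.63 and 0.95. Among the 22 GSTs 5 were higher and 3 lower, and the median was 0.08. The shares called were 31.6% of UGTs, 50% of SULTs and 36.4% of GSTs, against 18.9% of all genes.

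**Figure D1:**
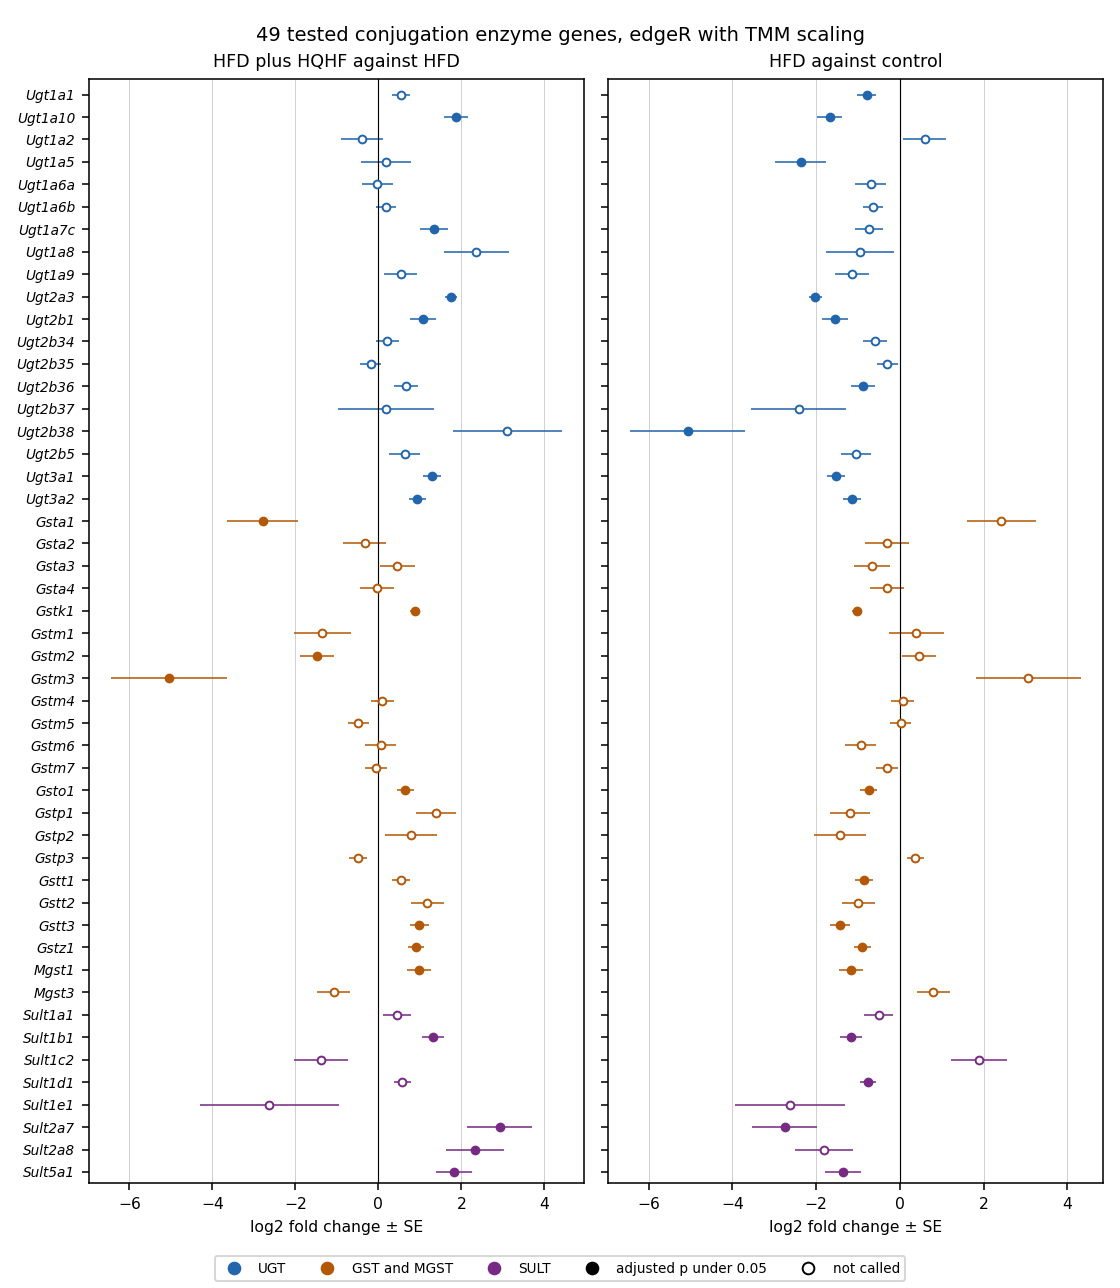
Log2 fold change of each tested enzyme with its SE in HFD plus HQHF against HFD (left panel) and in HFD against control (right panel), grouped by family, with filled points for called genes. The 19 called genes of the right panel all lie below 0, and in the left panel the 3 called genes below 0 are the GST genes Gstm2, Gstm3 and Gsta1.

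These calls rest on TMM scaling, which assumes that most genes do not differ. When libraries were scaled by their totals, the median of all genes moved to 0.66 in HFD against control and to -0.62 in HFD plus HQHF against HFD, and 7041 genes were higher and 154 lower in the first, 137 higher and 6496 lower in the second. The enzymes then had medians of -0.29 and 0.01, and 7 were higher and 9 lower in each of these comparisons. The direction of the GST family turned with this scaling, to medians of 0.08 in HFD against control and -0.45 in HFD plus HQHF against HFD, whereas the UGT and SULT medians kept their signs (-0.46 and -0.64 in HFD against control, 0.11 and 0.40 in HFD plus HQHF against HFD). Each of these medians lay below that of all genes in HFD against control and above it in HFD plus HQHF against HFD. With library totals the 9 genes still lower in HFD were Ugt2a3, Ugt3a1, Ugt3a2, Ugt1a10, Ugt1a5, Ugt2b1, Ugt2b38, Gstt3 and Sult2a7. The 7 higher were Gsta1, Gstm2, Gstm4, Gstm5, Gstp3, Mgst3 and Sult1c2. In HFD plus HQHF against HFD the 7 higher with library totals were Ugt2a3, Ugt3a1, Ugt1a10, Ugt1a7c, Sult1b1, Sult2a7 and Sult5a1. The 9 lower were Gsta1, Gstm2, Gstm3, Gstm5, Gstm7, Gstp3, Mgst3, Sult1c2 and Ugt2b35. In bulk liver RNA, fewer cells of a type and less RNA per cell cannot be told apart.

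**Figure D2:**
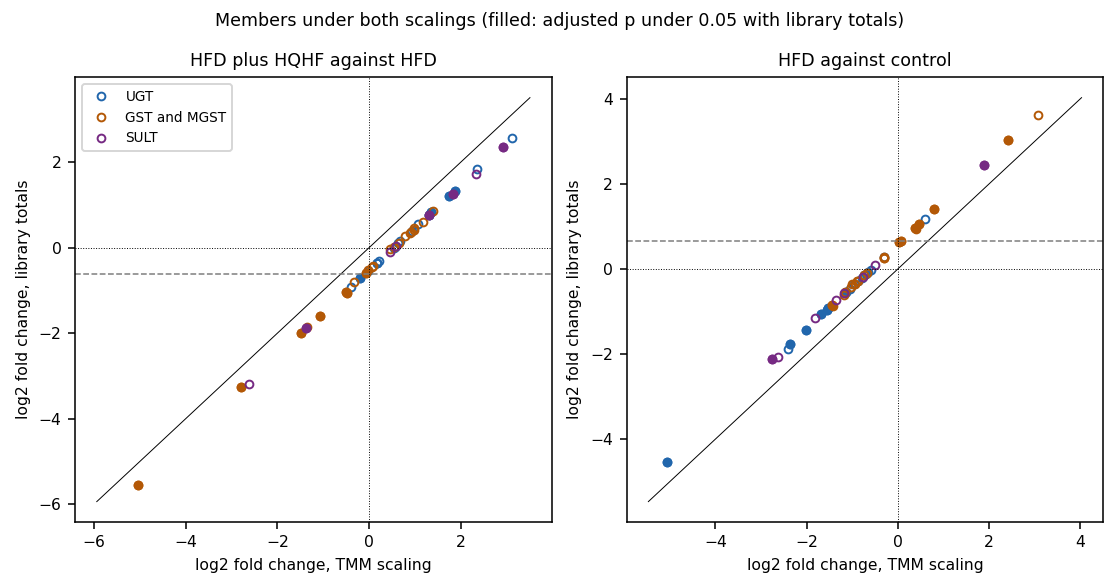
Log2 fold change of each tested enzyme with TMM scaling (horizontal axis) and with library totals (vertical axis), in HFD plus HQHF against HFD and in HFD against control, filled where called with library totals. The dashed grey line marks the median of all genes with library totals, -0.62 and 0.66, and Ugt2a3 is called with either scaling in both comparisons.

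Among the UGTs, Ugt2a3 (ENSMUSG00000035780), whose human counterpart glucuronidates bile acids, had the smallest p of the family in both comparisons. RefSeq promoter windows of the mouse build GRCm38.p6, from 250 bases before to 50 bases after the annotated start, were at hand for 53 of the 62 enzymes. The whole window of Ugt2a3 is shown as that of the gene with the smallest p (chr5:87337146-87337445, minus strand). The other lines show the 4 genes lower in HFD livers whose windows hold the core of a response element for a sensor of foreign compounds or oxidants, with 100 bases around the match. Capitals mark TGACNNNGC, the core of the antioxidant response element bound by NRF2, read on the other strand in Mgst1 (chr6:138140425-138140524, plus strand). In Ugt1a5 (chr1:88165915-88166014, plus strand), Sult1b1 (chr5:87536367-87536466, minus strand) and Sult1d1 (chr5:87569002-87569101, minus strand) they mark GCGTG, the core bound by the dioxin receptor AHR with ARNT, which in Sult1d1 reads CACGC from the other strand. Each sequence is written 5′ to 3′ on the strand of its gene.
Ugt2a3: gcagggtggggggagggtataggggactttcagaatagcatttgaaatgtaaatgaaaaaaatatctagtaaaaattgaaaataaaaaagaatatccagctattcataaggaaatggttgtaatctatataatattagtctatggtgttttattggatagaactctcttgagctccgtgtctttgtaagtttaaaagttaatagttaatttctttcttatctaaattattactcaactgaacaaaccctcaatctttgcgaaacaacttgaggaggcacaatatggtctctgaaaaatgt
Mgst1: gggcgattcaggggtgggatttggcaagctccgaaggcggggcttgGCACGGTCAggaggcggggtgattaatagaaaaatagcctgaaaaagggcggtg
Ugt1a5: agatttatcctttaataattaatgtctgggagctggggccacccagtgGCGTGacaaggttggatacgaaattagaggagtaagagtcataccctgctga
Sult1b1: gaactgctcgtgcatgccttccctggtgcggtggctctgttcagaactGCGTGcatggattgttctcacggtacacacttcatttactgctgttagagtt
Sult1d1: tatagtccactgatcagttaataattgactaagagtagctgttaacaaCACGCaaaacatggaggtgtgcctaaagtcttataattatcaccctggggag

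Searched on both strands, GCGTG was in 12 of the 53 windows: in 3 of 17 of genes lower in HFD livers, 8 of 27 of genes not called and 1 of 9 of genes not tested, against 35.2% of the 27025 windows of all genes. TGACNNNGC was in 4 of the 53 windows (1 of 17, 3 of 27 and 0 of 9), against 14.0% of all genes, and the Ugt2a3 window holds neither motif. GCGTG on the other strand can lie within TGACNNNGC, as it does in the Gstm5 window. A match describes these letters, not a bound site.

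Ugt2a3 stood at 226, 256 and 238 CPM in HFD plus HQHF 1, 2 and 4, at 82.6, 72.5, 60.3 and 71.3 CPM in HFD 1 to 4, and at 298, 296 and 277 CPM in control 1, 3 and 4. All 4 HFD livers lay below all other livers, and the HFD plus HQHF livers lay between both groups without overlap. In HFD against control its log2 fold change was -2.02 ± 0.15 (SE, adjusted p = 0.000146). In HFD plus HQHF against HFD it was 1.74 ± 0.15 (adjusted p = 0.00045), and against control -0.27 (adjusted p = 0.73). Where a pair of fold changes follows without names, the first is for HFD against control and the second for HFD plus HQHF against HFD, both on the log2 scale. CPM values here and below are on TMM-scaled library sizes, and levels are not compared between genes, since gene lengths were not used.

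Both genes of the UGT3A family, whose human enzymes use other sugar donors than UDP-glucuronate, were lower in every HFD liver. Ugt3a1 stood at 85.9, 110 and 89.3 CPM in HFD plus HQHF livers, at 52.1, 38.7, 39.0 and 24.8 CPM in HFD livers, and at 119, 104 and 111 CPM in control livers. The HFD values did not overlap with either other group, and HFD plus HQHF and control livers overlapped. Its log2 fold change was -1.53 ± 0.21 in HFD against control (adjusted p = 0.0025) and 1.30 ± 0.21 in HFD plus HQHF against HFD (adjusted p = 0.0058). Ugt3a2 stood at 269, 295 and 365 CPM in HFD plus HQHF livers, at 206, 172, 155 and 114 CPM in HFD livers, and at 396, 318 and 361 CPM in control livers. The groups separated in the same way, with fold changes of -1.15 ± 0.21 (adjusted p = 0.0058) and 0.94 ± 0.21 (adjusted p = 0.015).

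The UGT1A genes share their downstream exons, each with a first exon of its own, so that the authors' counting decides how reads of the common part are divided among them, and their values are uncertain in that respect. Ugt1a10 had low values of 2.73, 2.45 and 1.70 CPM in HFD plus HQHF livers, 0.712, 0.680, 0.608 and 0.499 CPM in HFD livers, and 1.63, 1.74 and 2.67 CPM in control livers. No HFD liver overlapped with another group, and the fold changes were -1.68 ± 0.30 in HFD against control (adjusted p = 0.0054) and 1.87 ± 0.30 in HFD plus HQHF against HFD (adjusted p = 0.0052). Ugt1a1, the enzyme that conjugates bilirubin, stood at 557, 707 and 1025 CPM in HFD plus HQHF livers, at 473, 603, 490 and 513 CPM in HFD livers, and at 920, 897 and 892 CPM in control livers. It was lower in HFD than in control livers without overlap (-0.80 ± 0.22, adjusted p = 0.024). HFD plus HQHF livers overlapped with both groups and the difference from HFD was not called (0.55, adjusted p = 0.092). With library totals the Ugt1a1 differences shrank to -0.20 and 0.01, neither of them called.

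Unlike Ugt1a10, Ugt1a5 and Ugt1a7c were not called in both of these comparisons. Ugt1a5 was lower in HFD than in control livers (-2.37 ± 0.61, adjusted p = 0.023), and its fold change in HFD plus HQHF against HFD was 0.18 (adjusted p = 0.86). Its means were 15.8 ± 15.1 CPM in HFD plus HQHF livers (SD, n = 3), 14.0 ± 6.79 CPM in HFD livers (n = 4) and 72.5 ± 29.1 CPM in control livers (n = 3). Between HFD plus HQHF and control livers Ugt1a5 differed by -2.19 ± 0.67, called by DESeq2 (adjusted p = 0.039) and not by edgeR (adjusted p = 0.62). Ugt1a7c was higher with HQHF than in HFD livers (1.35 ± 0.34, adjusted p = 0.023) and was not called in HFD against control (-0.74, adjusted p = 0.13). Of the 9 tested UGT1A genes, 3 were lower in HFD than in control livers and 2 were higher with HQHF than in HFD livers. These are 33.3% and 22.2%, near the 26.2% and 18.9% of all genes called.

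The UGT2B genes of chromosome 5 code for enzymes of steroid and drug glucuronidation, and some of them are similar enough in sequence that reads can be assigned to the wrong copy. Of the 7 tested, 3 were lower in HFD than in control livers (Ugt2b1, Ugt2b36 and Ugt2b38) and Ugt2b1 was higher with HQHF than in HFD livers. The shares called were 42.9% and 14.3%, against 26.2% and 18.9% of all genes. Ugt2b1 had means of 234 ± 35.4 CPM in HFD plus HQHF livers, 111 ± 50.8 CPM in HFD livers and 325 ± 21.9 CPM in control livers. No group overlapped with another for Ugt2b1, with fold changes of -1.56 ± 0.31 (adjusted p = 0.0078) in HFD against control and 1.08 ± 0.31 (adjusted p = 0.036) in HFD plus HQHF against HFD. The fold changes of Ugt2b36 were -0.88 ± 0.29 (adjusted p = 0.045) and 0.67 (adjusted p = 0.12). Ugt2b5, which drew the most counts of the UGT2B genes, stood at 547, 777 and 678 CPM in HFD plus HQHF livers, at 625, 563, 375 and 161 CPM in HFD livers, and at 846, 876 and 952 CPM in control livers. HFD and control livers did not overlap for Ugt2b5, though the difference missed the threshold (-1.05, adjusted p = 0.056), and HFD and HFD plus HQHF livers overlapped (0.63, adjusted p = 0.24).

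Ugt2b38 stood at 6.32, 1.85 and 6.75 CPM in HFD plus HQHF livers, at 1.77, 0.404, 0.118 and 0 CPM in HFD livers, and at 49.2, 3.15 and 5.71 CPM in control livers. Its control value was set mostly by control 1, the library that holds Pnlip. The log2 fold change in HFD against control was -5.07 ± 1.37 (adjusted p = 0.028), and without control 1 it was -2.95, no longer called (adjusted p = 0.13). HFD plus HQHF livers did not overlap with HFD livers for Ugt2b38, and the difference was not called (3.11 ± 1.31, adjusted p = 0.12). The neighbouring Ugt2b37 and Sult1e1, named after their values were seen, were also high in control 1 alone among the control livers. Ugt2b37 stood at 9.77 CPM in control 1, against 0.103 and 0.635 CPM in control 3 and 4, and Sult1e1, the estrogen sulfotransferase, at 9.27 CPM, against 0.128 and 0.127 CPM. The pancreatic acinar list took 0.238% of the counts in control 1 and at most 0.00282% in an HFD liver. Its part in these values was not tested.

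**Figure D3:**
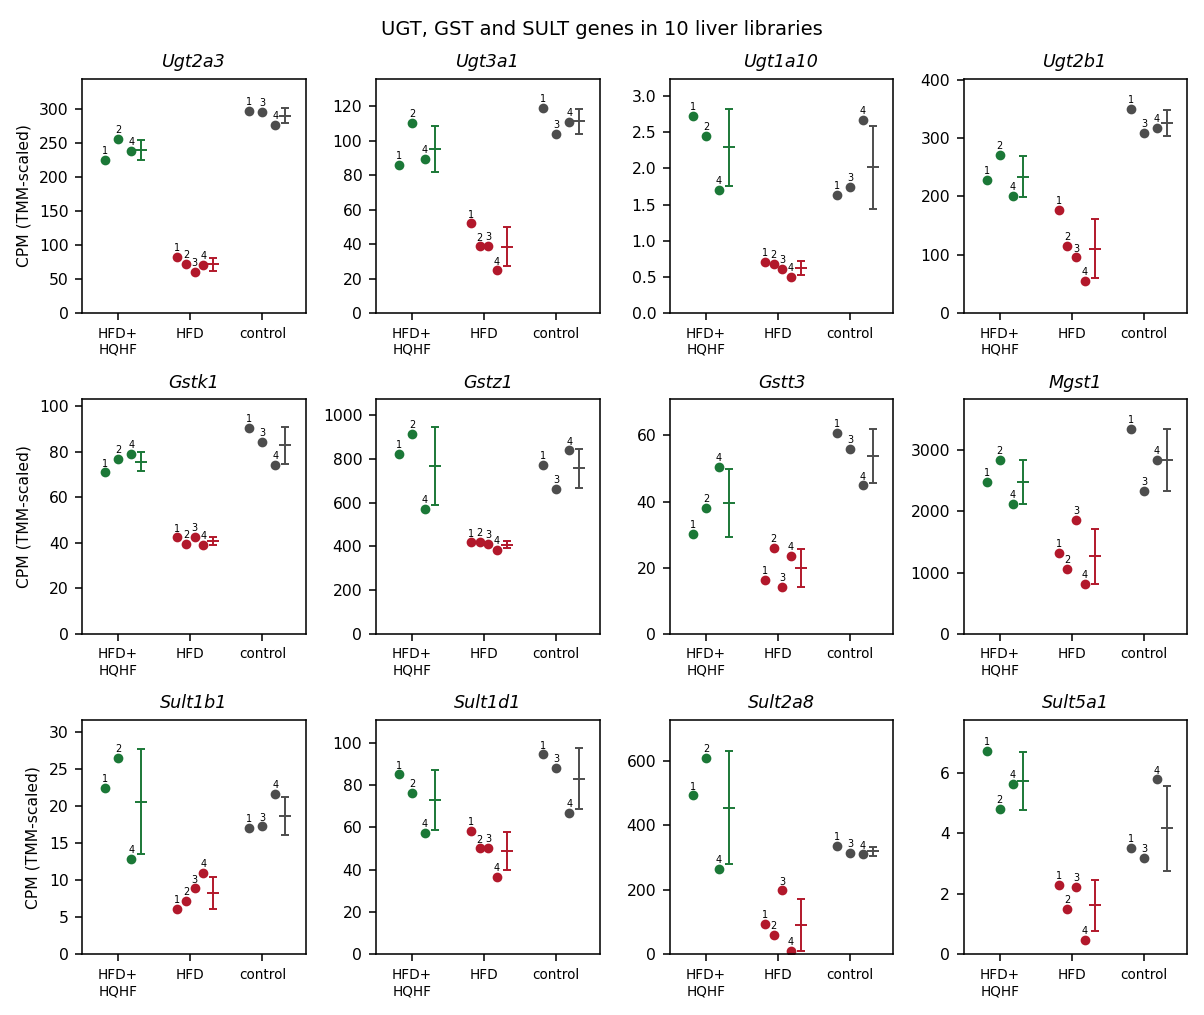
CPM of 12 of the enzymes in every liver, as points per library with the replicate number beside each and the mean ± SD to the right, for HFD plus HQHF (n = 3), HFD (n = 4) and control (n = 3). In the Ugt2a3 and Ugt3a1 panels all 4 HFD livers lie below all others.

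The 6 GSTs called lower in HFD than in control livers all belong to classes other than alpha, mu and pi. This split depends on the threshold. Gstp1 (-1.19, adjusted p = 0.090), Gstp2 (-1.43, adjusted p = 0.11) and Gstm6 (-0.94, adjusted p = 0.085) also lay below all control livers. DESeq2 called 10 GSTs lower and 2 higher. Gstk1, a mitochondrial and peroxisomal enzyme, stood at 71.0, 77.0 and 79.0 CPM in HFD plus HQHF livers, at 42.4, 39.7, 42.6 and 38.9 CPM in HFD livers, and at 90.4, 84.2 and 74.3 CPM in control livers. The HFD livers lay within a narrow band below all others, with fold changes of -1.02 ± 0.12 in HFD against control (adjusted p = 0.0012) and 0.89 ± 0.12 in HFD plus HQHF against HFD (adjusted p = 0.0029). Gstz1, which as maleylacetoacetate isomerase serves tyrosine breakdown, stood at 824, 913 and 571 CPM in HFD plus HQHF livers, at 418, 419, 413 and 382 CPM in HFD livers, and at 774, 663 and 839 CPM in control livers. The HFD values did not overlap with the others, and the fold changes were -0.89 ± 0.20 (adjusted p = 0.011) and 0.91 ± 0.20 (adjusted p = 0.013). With library totals the Gstk1 differences were -0.43 and 0.34 and the Gstz1 differences -0.29 and 0.37, none of them called.

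The theta class enzymes act on small halogenated compounds among others. Gstt3 stood at 30.1, 38.2 and 50.6 CPM in HFD plus HQHF livers, at 16.2, 25.9, 14.1 and 23.6 CPM in HFD livers, and at 60.9, 55.9 and 44.9 CPM in control livers. HFD livers did not overlap with either group, and the fold changes were -1.43 ± 0.24 in HFD against control (adjusted p = 0.0042) and 0.99 ± 0.24 in HFD plus HQHF against HFD (adjusted p = 0.020). Gstt1 stood at 107, 153 and 113 CPM in HFD plus HQHF livers, at 97.4, 107, 65.2 and 71.4 CPM in HFD livers, and at 121, 169 and 176 CPM in control livers. It was lower in HFD than in control livers (-0.87 ± 0.22, adjusted p = 0.018), and HFD plus HQHF against HFD was not called (0.54, adjusted p = 0.10).

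Gsto1, an omega class enzyme that also reduces dehydroascorbate, stood at 71.3, 74.8 and 115 CPM in HFD plus HQHF livers, at 71.9, 56.9, 47.5 and 45.5 CPM in HFD livers, and at 89.6, 93.2 and 95.1 CPM in control livers. HFD livers lay below control livers (-0.74 ± 0.20, adjusted p = 0.025) and overlapped with HFD plus HQHF livers in HFD 1, with a difference of 0.65 ± 0.20 (adjusted p = 0.048). Mgst1, the membrane-bound enzyme with peroxidase activity, stood at 2484, 2839 and 2119 CPM in HFD plus HQHF livers, at 1318, 1062, 1863 and 820.1 CPM in HFD livers, and at 3356, 2334 and 2849 CPM in control livers. HFD livers did not overlap with either group, and the fold changes were -1.17 ± 0.29 (adjusted p = 0.016) and 0.97 ± 0.29 (adjusted p = 0.039). Without control 1 the Mgst1 difference between HFD and control was -1.04 and no longer called (adjusted p = 0.063).

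Of the mu class genes of chromosome 3, several of them known NRF2 targets, Gstm1, Gstm2 and Gstm3 behaved otherwise, with wide scatter among HFD livers. So did Gsta1 of the alpha class. Other mu class genes did not share this, as Gstm6 lay lower in HFD than in all control livers and Gstm5 hardly differed (0.014, adjusted p = 0.97). Gstm1 stood at 525, 802 and 1142 CPM in HFD plus HQHF livers, at 3068, 4016, 427 and 909 CPM in HFD livers, and at 910, 2016 and 1874 CPM in control livers. HFD 1 and HFD 2 were above every control liver, HFD 3 was below them, HFD 4 was level with control 1, and neither comparison was called (0.40 in HFD against control, adjusted p = 0.69, and -1.35 in HFD plus HQHF against HFD, adjusted p = 0.18). Gstm3 stood at 2.30, 3.52 and 11.3 CPM in HFD plus HQHF livers, at 255, 416, 4.35 and 78.2 CPM in HFD livers, and at 11.5, 23.5 and 32.5 CPM in control livers. HFD 3 was apart from the other HFD livers and overlapped with the HFD plus HQHF livers. The fold change of Gstm3 in HFD plus HQHF against HFD was -5.04 ± 1.39 (adjusted p = 0.038), and in HFD against control it was 3.07 ± 1.25, not called (adjusted p = 0.10).

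Gstm2 stood at 28.3, 20.3 and 30.9 CPM in HFD plus HQHF livers, at 89.7, 121, 32.9 and 52.3 CPM in HFD livers, and at 40.2, 46.7 and 74.6 CPM in control livers. It was lower with HQHF than in HFD livers without overlap (-1.48 ± 0.41, adjusted p = 0.035), and HFD and control livers overlapped (0.46, adjusted p = 0.42). Gsta1 stood at 0.546, 12.1 and 4.89 CPM in HFD plus HQHF livers, at 42.8, 65.0, 21.0 and 33.9 CPM in HFD livers, and at 3.62, 7.74 and 11.4 CPM in control livers. All HFD livers were above all others for Gsta1. The fold change was -2.79 ± 0.84 in HFD plus HQHF against HFD (adjusted p = 0.048) and 2.43 ± 0.83 in HFD against control (adjusted p = 0.058), a difference called with library totals (3.02, adjusted p = 0.027) and by DESeq2 (2.39, adjusted p = 0.020). Each of these 3 lower calls was lost when 1 HFD plus HQHF library was left out, whichever it was.

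Gsta3, which drew the most counts of the alpha class, and Gstp1, which drew the most of the pi class, were not called. Gsta3 stood at 851, 1383 and 969 CPM in HFD plus HQHF livers, at 1075, 1272, 417 and 344 CPM in HFD livers, and at 1116, 1249 and 1341 CPM in control livers. HFD 3 and HFD 4 were below all other livers, while HFD 1 and HFD 2 were among them. Gstp1 stood at 2899, 2207 and 3954 CPM in HFD plus HQHF livers, at 1978, 1657, 524 and 451 CPM in HFD livers, and at 2384, 2660 and 2821 CPM in control livers. All HFD livers lay below all others for Gstp1, with fold changes of -1.19 ± 0.48 in HFD against control (adjusted p = 0.090) and 1.39 ± 0.48 in HFD plus HQHF against HFD (adjusted p = 0.065). For both genes, as for Gstm1, the values of HFD 3 and HFD 4 lay below those of HFD 1 and HFD 2. Gstp1 has the near-identical copy Gstp2, and Gsta1 the copy Gsta2, so reads may be divided between them.

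**Figure D4:**
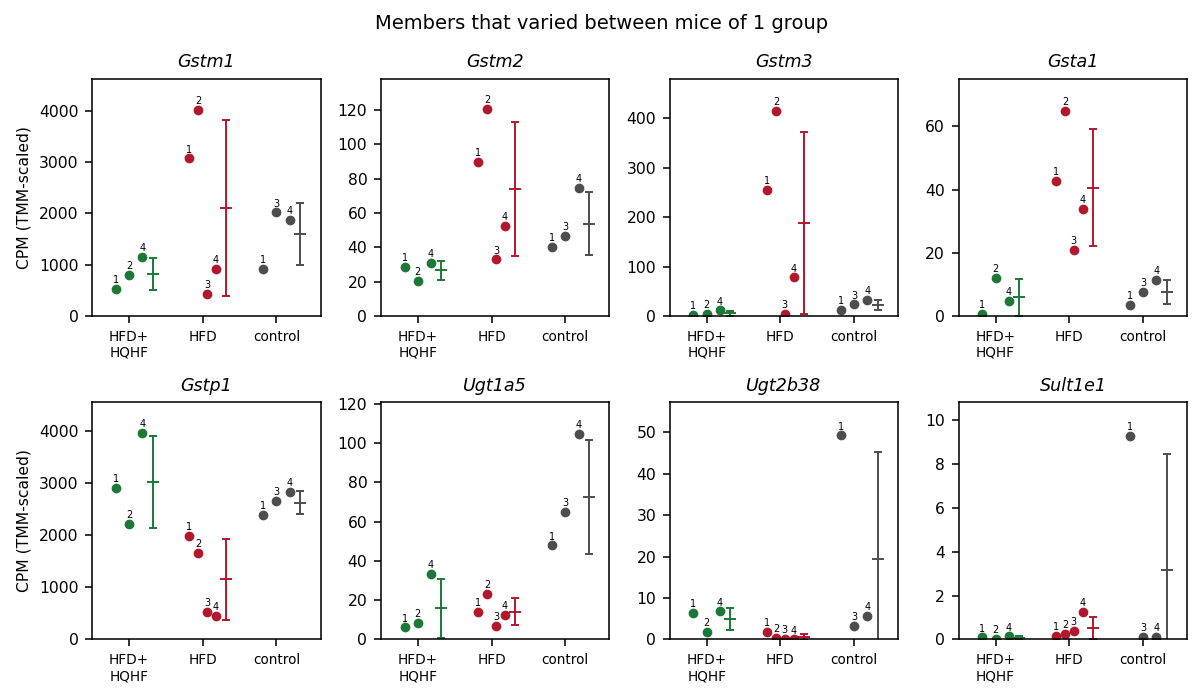
CPM per library of 8 enzymes that varied between mice, with the replicate number beside each point and the mean ± SD to the right, cut at 0, for HFD plus HQHF (n = 3), HFD (n = 4) and control (n = 3). The Gstm1, Gstm2 and Gstm3 panels show HFD 1 and HFD 2 above HFD 3 and HFD 4, and the Ugt2b38 and Sult1e1 panels show control 1 above the other control livers.

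Among the SULTs, 4 of the 8 tested genes were lower in HFD than in control livers. Sult1b1, which sulfates thyroid hormones, stood at 22.5, 26.5 and 12.8 CPM in HFD plus HQHF livers, at 6.08, 7.21, 8.88 and 10.9 CPM in HFD livers, and at 17.1, 17.2 and 21.6 CPM in control livers. HFD livers did not overlap with either group, and the fold changes were -1.17 ± 0.26 in HFD against control (adjusted p = 0.011) and 1.32 ± 0.26 in HFD plus HQHF against HFD (adjusted p = 0.010). Sult1d1, which sulfates catecholamines in mice, stood at 85.1, 76.5 and 57.5 CPM in HFD plus HQHF livers, at 58.2, 50.04, 50.5 and 36.7 CPM in HFD livers, and at 94.5, 88.1 and 66.7 CPM in control livers. HFD livers lay below control livers (-0.77 ± 0.20, adjusted p = 0.019) and overlapped with HFD plus HQHF livers (0.58, adjusted p = 0.059). Sult1a1, the phenol sulfotransferase, stood at 304, 215 and 248 CPM in HFD plus HQHF livers, at 99.0, 152, 170 and 326 CPM in HFD livers, and at 212, 322 and 263 CPM in control livers. HFD 4 was the highest of all for Sult1a1 while the other HFD livers were the lowest, and no difference was called (-0.51 in HFD against control, adjusted p = 0.29).

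The SULT2A genes code for hydroxysteroid and bile acid sulfotransferases, and Sult2a8 is a bile acid sulfotransferase of mouse liver. Sult2a8 stood at 492, 607 and 265 CPM in HFD plus HQHF livers, at 94.3, 59.4, 198 and 11.6 CPM in HFD livers, and at 336, 313 and 310 CPM in control livers. All HFD livers lay below all others, and the range among them was wide. The fold change of Sult2a8 was 2.32 ± 0.70 in HFD plus HQHF against HFD (adjusted p = 0.046) and -1.81 ± 0.69 in HFD against control (adjusted p = 0.079). Sult2a7 had low values of 1.15, 1.33 and 0.915 CPM in HFD plus HQHF livers, 0.0731, 0.147, 0.372 and 0 CPM in HFD livers, and 1.37, 0.871 and 0.762 CPM in control livers. HFD livers did not overlap with either group, with fold changes of -2.75 ± 0.78 (adjusted p = 0.028) and 2.93 ± 0.78 (adjusted p = 0.029). Sult5a1 stood at 6.72, 4.80 and 5.62 CPM in HFD plus HQHF livers, at 2.28, 1.51, 2.22 and 0.464 CPM in HFD livers, and at 3.52, 3.18 and 5.78 CPM in control livers. All HFD livers were again below all others, with fold changes of -1.36 ± 0.44 (adjusted p = 0.043) and 1.82 ± 0.44 (adjusted p = 0.020).

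How firmly each call stood against the loss of a library was read from 10 fits that each left out 1 library. In HFD against control, Ugt2a3, Ugt3a1, Ugt3a2, Ugt1a10, Ugt2b1, Gstk1, Gstz1, Gstt3 and Sult1b1 were called in all 10. Of these, Gstk1, Gstz1 and Sult1b1 were not called with library totals. Mgst1 was called in 9, and its call was lost without control 1. Gstt1 was called in 8 and lost without control 3 or 4 (highest adjusted p = 0.063), and Sult1d1 in 8 and lost without control 1 or 3 (0.073). Ugt1a5 was called in 7 and lost without HFD 4, control 3 or control 4 (0.069). Ugt1a1 (0.070), Gsto1 (0.066), Sult2a7 (0.095) and Ugt2b38 (0.13) were called in 6, and each was lost without control 1. Ugt1a1, Gsto1 and Sult2a7 were also lost without control 3 or 4. The remaining one was HFD 1 for Ugt1a1 and Sult2a7 and HFD 4 for Gsto1, and Ugt2b38 was lost without HFD 2, HFD 4 or HFD plus HQHF 1 as well. Sult5a1 was called in 3 of the 10 (0.15) and stayed called without HFD 1, 3 or 4, and Ugt2b36 was called in 2 (0.11) and stayed called without HFD 1 or 2.

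In HFD plus HQHF against HFD, Ugt2a3, Ugt3a1, Ugt3a2, Ugt1a10, Gstk1 and Sult1b1 were called in all 10 fits. Of these, Ugt3a2 and Gstk1 were not called with library totals. Ugt1a7c (0.095), Gstz1 (0.059), Gstt3 (0.066) and Sult5a1 (0.076) were called in 8, with the highest adjusted p in brackets. These were lost without HFD plus HQHF 1 or 2, or, for Gstt3, without 2 or 4. Sult2a7 was called in 6 (0.093) and lost without HFD 1 or any HFD plus HQHF library. Ugt2b1 (0.12) and Gstm2 (0.13) were called in 4, both being lost without any HFD plus HQHF library or HFD 2, Ugt2b1 also without HFD 3 or control 4 and Gstm2 also without HFD 1 or control 3. Gstm3 (0.14), Mgst1 (0.12) and Sult2a8 (0.14) were called in 2. Gstm3 and Mgst1 stayed called without HFD 3 or control 1, and Sult2a8 without HFD 3 or 4. Gsto1 (0.16) and Gsta1 (0.13) were called in 1, Gsto1 without HFD 1 and Gsta1 without HFD 3.

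Genes that neighbour each other did not all change together. On chromosome 5 the RefSeq order runs from the UGT2B genes through Ugt2a3 and Ugt2b38 to Sult1b1, Sult1d1 and Sult1e1. Of these, Ugt2b1, Ugt2b36, Ugt2a3, Ugt2b38, Sult1b1 and Sult1d1 were lower in HFD than in control livers, and Ugt2b1, Ugt2a3 and Sult1b1 were higher with HQHF than in HFD livers. Among the 7 mu class genes of chromosome 3, 0 were called in HFD against control, with 2 at an unadjusted p under 0.05. Gstm2 and Gstm3, which lie side by side, were lower with HQHF than in HFD livers. Of all genes 26.2% were called in HFD against control and 18.9% in HFD plus HQHF against HFD. DESeq2 and library totals scaling each called mu class or other GST genes higher in HFD livers, 2 and 6 of the 22 GSTs.

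**Figure D5:**
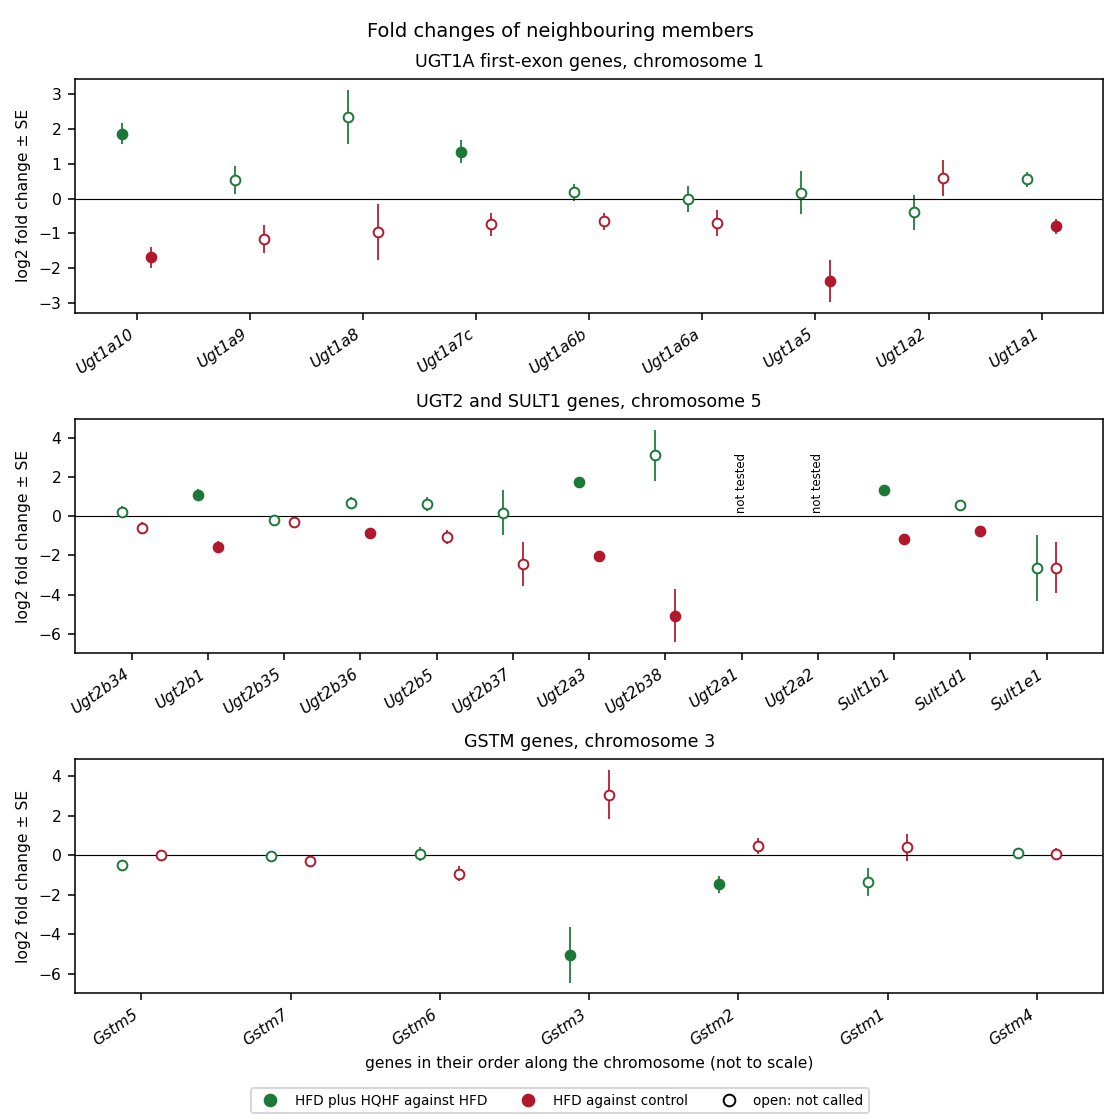
Log2 fold change with SE of the enzymes in RefSeq gene order along the UGT1A genes of chromosome 1, the UGT2 and SULT1 genes of chromosome 5 and the mu class genes of chromosome 3, with HFD plus HQHF against HFD in green and HFD against control in red. Positions are gene order, not distance, and at Ugt2a3 the values are 1.74 and -2.02.

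The 13 enzymes that were not tested had few reads. Ugt2a2 and Sult6b1 had 0 reads in the 10 livers, Ugt2a1 had 3, all in control 1, and Gstt4 and Sult2a5 had 2 each. Sult3a1 had 9, Sult2a1 18, Gsta5 27, Gsto2 28, Sult4a1 51, and Sult2a2 and Sult2b1 53 each. Mgst2, a microsomal enzyme that also makes leukotriene C, had 103, of which 90 were in HFD 3, the library with Adipoq. Of the 53 reads of Sult2b1, the cholesterol sulfotransferase, 29 were in HFD 4 and 0 in control livers. Of the 53 reads of Sult2a2, 33 were in HFD 4.

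The supply of the donors was measured through lists of other genes. The background shares of 26.2% and 18.9% apply to their calls on TMM scaling, used unless library totals are named. With library totals 7041 of the 13832 genes were higher and 154 lower in HFD against control. In HFD plus HQHF against HFD 137 were higher and 6496 lower. These are the counts of all genes beside every list count with library totals, markers included. For UDP-glucuronate supply and glucuronide cleavage, 3 of 10 tested genes were called in HFD against control: Pgm2 rose (1.11), and Pgm1 (-0.81) and Entpd5 (-0.61) fell. Against HFD, HQHF livers had 1 lower, Pgm2 (-0.84). Ugdh, the enzyme that makes UDP-glucuronate, was not called with TMM scaling, at 92.1 ± 5.85 CPM in HFD plus HQHF livers, 154 ± 65.1 CPM in HFD livers and 172 ± 21.0 CPM in control livers. With library totals Ugdh was called lower in HFD plus HQHF against HFD (-1.28, adjusted p = 0.0050), and of the 10 genes 3 were higher and 0 lower in HFD against control, and 0 higher and 5 lower in HFD plus HQHF against HFD. In glutathione synthesis and turnover, 4 of 16 genes were higher in HFD (Dpep1 2.50, Ggt7 2.47, Chac1 2.03 and Ggt5 1.13) and 2 lower (Oplah -1.08 and Cth -1.08), and with HQHF 1 was lower than in HFD livers, the dipeptidase gene Dpep1 (-2.78). Of the higher genes, Dpep1, Chac1 and Ggt5 cleave glutathione, its conjugates or their fragments, and Cth makes cysteine. Without control 1 and HFD 3, 0 of the 16 were higher and 1 lower in HFD against control by edgeR. With library totals 6 were higher and 0 lower in HFD against control, and 0 higher and 4 lower in HFD plus HQHF against HFD. With library totals Pgm1, Entpd5, Oplah and Cth kept their signs in HFD against control and were not called. The synthesis genes Gclc, Gclm and Gss were not called in either comparison with TMM scaling, whereas with library totals Gss was called in both (0.94 and -1.02, adjusted p = 0.0012 each).

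In sulfate activation and sulfate ester cleavage, the isoforms of PAPS synthase moved in opposite directions. Papss2 stood at 177 ± 57.4 CPM in HFD plus HQHF livers, 67.8 ± 25.6 CPM in HFD livers and 145 ± 18.9 CPM in control livers, with fold changes of -1.10 (adjusted p = 0.021) in HFD against control and 1.38 (adjusted p = 0.013) in HFD plus HQHF against HFD. Papss1 stood at 7.58 ± 0.532 CPM in HFD plus HQHF livers, 12.6 ± 1.56 CPM in HFD livers and 6.45 ± 0.671 CPM in control livers, with fold changes of 0.96 (adjusted p = 0.0038) and -0.73 (adjusted p = 0.013). Of 13 tested genes 2 were higher in HFD (Papss1, and the sulfate transporter Slc26a2 at 0.78) and 3 lower (Papss2, Suox at -0.93 and Bpnt1 at -0.48). With HQHF 4 were higher than in HFD livers (Papss2, Suox 0.96, Slc35b2 0.52 and Bpnt1 0.50) and 2 lower (Papss1 and Slc26a2 at -0.72). With library totals Bpnt1 turned to 0.12 and -0.06 and Slc35b2 to -0.04, the last in HFD plus HQHF against HFD, and neither Papss2 nor Suox was called in HFD against control. Of the 13 genes 7 were then higher and 0 lower in HFD against control, and 1 higher and 6 lower in HFD plus HQHF against HFD.

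Of 16 receptors and factors known to regulate these genes, 4 were lower in HFD than in control livers and 4 higher with HQHF than in HFD livers, near the shares of all genes called (26.2% and 18.9%). With library totals 6 were higher and 0 lower in HFD against control (Arnt, Cebpa, Foxa2, Keap1, Nfe2l2 and Rxra higher). In HFD plus HQHF against HFD 1 was higher and 4 lower. All genes moved the same way, with medians of 0.66 and -0.62, against 0.39 and -0.28 for the list. Nr1i3, which codes for CAR, stood at 192 ± 77.0 CPM in HFD plus HQHF livers, 76.1 ± 22.0 CPM in HFD livers and 177 ± 10.7 CPM in control livers, with fold changes of -1.21 (adjusted p = 0.014) and 1.33 (adjusted p = 0.013). Nr1i2, which codes for PXR, had fold changes of -0.90 (adjusted p = 0.0097) and 1.11 (adjusted p = 0.0067). Those of Ppara were -1.16 (adjusted p = 0.0057) and 1.09 (adjusted p = 0.0095). Those of Nr1h4, which codes for FXR, were -0.86 (adjusted p = 0.0078) and 0.79 (adjusted p = 0.015). The signs of these 4 receptors held with library totals, where they were not called in HFD against control and of them Nr1i2 alone was called in HFD plus HQHF against HFD (0.55, adjusted p = 0.044). Hnf4a, Ahr and Nfe2l2, the gene of NRF2, were not called in either comparison with TMM scaling. With library totals Nfe2l2 was called in both (0.58, adjusted p = 0.046, and -1.04, adjusted p = 0.0044) and Ahr in HFD plus HQHF against HFD (-0.62, adjusted p = 0.033).

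Of 16 NRF2 targets outside the GSTs, 7 were higher in HFD (Slc7a11 6.28, Cbr3 3.40, G6pdx 1.53, Pgd 1.30, Srxn1 0.84, Nqo1 0.80 and Hmox1 0.65) and 1 lower (Ces1g -1.03), and 6 were lower with HQHF than in HFD livers. With library totals 10 were higher and 0 lower in HFD against control, and 0 higher and 13 lower in HFD plus HQHF against HFD, and without control 1 and HFD 3 the first counts were 4 and 1. Cbr3, a carbonyl reductase, stood at 0.663 ± 0.0372 CPM in HFD plus HQHF livers, 6.66 ± 3.20 CPM in HFD livers and 0.632 ± 0.119 CPM in control livers. Among 9 exporters of conjugates, 4 were higher in HFD (Abcb1a 2.13, Abcc5 1.75, Abcc1 1.55 and Abcc4 1.06) and 2 lower (Abcc3 -1.11 and Abcg2 -0.63). With HQHF 4 were lower than in HFD livers and 1 higher, Abcg2 (0.68). Abcb1a exports mainly unconjugated drugs. Abcc3 exports glucuronides to blood and was at 394 ± 176 CPM in HFD plus HQHF livers, 260 ± 42.5 CPM in HFD livers and 561 ± 157 CPM in control livers. With library totals Abcc3 and Abcg2 kept their signs and were not called in either comparison, and of the 9 exporters 4 were higher and 0 lower in HFD against control, and 0 higher and 5 lower in HFD plus HQHF against HFD.

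In methyl, acetyl and amino acid conjugation, 6 of 15 genes were lower and 0 higher in HFD than in control livers (Inmt -1.68, Gnmt -1.57, Baat -1.19, Glyat -1.10, Acsm1 -1.03 and Tpmt -0.66), with a median of -0.85, and 7 were higher with HQHF than in HFD livers. Baat joins bile acids to taurine or glycine, and Gnmt methylates glycine. With library totals 2 of the 15 were higher and 2 lower in each of these comparisons. Related enzymes outside the family rule numbered 11, of which 4 were higher in HFD (Ugt8a 4.30, Ptges 3.25, Hpgds 2.51 and Alox5ap 1.29) and 2 were lower with HQHF than in HFD livers (Ugt8a -3.91 and Hpgds -1.79), against 6 higher and 6 lower with library totals. Hpgds is a sigma class GST of the prostaglandin pathway, found mostly in immune cells. Of the 192 listed genes tested, markers included, 0 were called between HFD plus HQHF and control livers by edgeR, 17 had an unadjusted p under 0.05, and DESeq2 called 1.

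With TMM scaling, hepatocyte, macrophage and stellate cell markers were called more often than all genes. The shares of all genes called were 26.2% in HFD against control and 18.9% in HFD plus HQHF against HFD. Of 16 hepatocyte markers 8 were lower in HFD than in control livers (median -0.87) and 7 higher with HQHF than in HFD livers (median 0.70). Summed, they took 11.3% to 14.96% of the counts in HFD plus HQHF livers, 9.66% to 16.3% in HFD livers and 13.8% to 17.1% in control livers, so that the groups overlapped. With library totals 1 of the 16 rose and 4 fell in HFD against control, and 2 were higher and 0 lower with HQHF than in HFD livers. Of 15 pericentral hepatocyte genes 1 was higher and 3 lower in HFD, near the share of all genes. Of 15 periportal genes 0 were higher and 4 lower, also near it. With HQHF 1 pericentral gene and 3 periportal genes were higher than in HFD livers, and 0 were lower. In HFD against control library totals gave 1 pericentral gene higher and 0 lower, and 2 periportal genes higher and 1 lower. In HFD plus HQHF against HFD library totals gave 1 higher and 2 lower in each list. The medians there turned to -0.13 for pericentral and -0.15 for periportal genes. Macrophage markers took 0.0279% to 0.0406% of the counts in HFD plus HQHF livers, 0.0523% to 0.0973% in HFD livers and 0.0243% to 0.0317% in control livers, and in HFD against control 9 of the 15 rose and 3 fell, while 3 were higher and 8 lower with HQHF than in HFD livers. In HFD against control 8 macrophage markers rose and 0 fell without control 1 and HFD 3, and 11 rose and 0 fell with library totals. Stellate cell markers took 0.0311% to 0.0378% in HFD plus HQHF livers, 0.0617% to 0.162% in HFD livers and 0.0268% to 0.0357% in control livers, with 8 of 10 higher in HFD than in control livers and 8 lower with HQHF than in HFD livers. Cholangiocyte markers took 0.00283% to 0.00348% in HFD plus HQHF livers, 0.00409% to 0.0507% in HFD livers and 0.00311% to 0.00374% in control livers, so that every HFD liver lay above all others. Of these 7 genes 1 was higher in HFD by edgeR and 5 by DESeq2 and with library totals (median log2 fold change 2.89 with TMM scaling), and with HQHF 1 was lower than in HFD livers by edgeR, 5 by DESeq2 and 6 with library totals. Of 4 adipocyte genes 0 were called by edgeR, with 1 at an unadjusted p under 0.05 and 1 called by DESeq2. Of 4 kidney and intestine genes, among them Apoa4, which the liver also expresses, 0 were called by edgeR, with 2 at an unadjusted p under 0.05 and 2 called by DESeq2. Of 3 acinar genes 1 was lower in HFD, a call not made by DESeq2 or with library totals. Defining markers of hepatocytes were far from 0 in all 10 livers. The part of the other cell types in the enzyme values was not tested.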

How the data were processed

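Long RNA libraries were made from TRIzol-extracted total liver RNA with a stranded kit that removes ribosomal RNA, per the labels' protocols. The authors deposited whole-number counts per gene, not normalized. The submitters' processing notes name HISAT2, RSEM and the build GRCm39, without versions or roles, and the counting step is not given in the sources used here. Totals of the 10 libraries used ran from 36198931 to 46454404. The small RNA table was not used.

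The model was fitted with edgeR 4.0.16 in R 4.3.3: filterByExpr by group, TMM scaling (factors 0.763 to 1.42), and 1 robust quasi-likelihood model with the means of the 3 groups over 10 libraries, with Benjamini-Hochberg adjustment over all 13832 genes and calls at 0.05. DESeq2 1.42.0 gave the alternative test, and figures came from Python 3.11.15 with matplotlib 3.10.9. Standard errors were derived from the test's F statistic. In counts simulated for HFD against control over 13628 genes, 39 of 100 genes changed 2-fold and 92 of 100 changed 4-fold were recovered, and 8 of 13428 unchanged genes were called. Far fewer genes were changed there than the 26.2% called in the data, so these rates need not hold for the data. Counting error and few mice limit the precision, and low genes most.

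Values in every library are given, per comparison and family, for up to 3 called genes in each direction with the smallest p and at least 1 CPM, for the gene of each subfamily with the highest mean CPM, and for Ugt2a3 and Ugt2b38. The members and gene lists were chosen with earlier results of these data known. Libraries were taken as 1 mouse each, and p-values measure the spread between them. The batch codes differ from mouse to mouse, which leaves no batch to fit. Alternatives were other scaling, filters, DESeq2, all 12 libraries, fits of the compared groups alone, a replicate block, leaving out libraries, and, chosen after seeing the data, leaving out control 1 and HFD 3. Promoter sequences and gene order come from RefSeq (GRCm38.p6), a different build from that of the counts, with 61 of 62 symbols matched for order. The coordinates given with the promoter windows are therefore those of GRCm38.p6.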

Additional observations from a re-analysis of the deposited data

Results flagged for a closer look

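Gstz1 stood at 382.2 CPM in HFD 4, apart from the other 3 HFD livers, which lay close together at 413 to 419 CPM, so the gap was large against a small range. Of 29 enzymes checked in the 4 HFD livers it was the only one whose lowest or highest value stood apart in this way, and chance gives about 1 in 20.

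The library control 2, left out of the comparisons, held several enzymes at more than 2-fold above each of the 10 livers used, on library totals. Mgst3 stood at 308.1 CPM there, against 3.82 to 31.5 CPM in the 10 livers, and Sult1e1 at 116.3 CPM, against 0.0245 to 7.97 CPM. Gstm5 stood at 50.9 CPM, against 4.24 to 12.7 CPM. Mgst2 stood at 36.07 CPM, against 0 to 2.49 CPM, and Sult5a1 at 11.26 CPM, against 0.581 to 5.53 CPM. The same library held the 4543 CPM of Adipoq given above.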

How the results depend on the processing

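For the conjugation enzymes, 19 calls in HFD against control and 18 in HFD plus HQHF against HFD rest on 3 or 4 mice per group. Among all genes 3625 and 2618 were called. With all 12 libraries both enzyme counts were 0 by edgeR, with 3 enzymes in the first and 4 in the second at an unadjusted p under 0.05. Of all genes 7 and 1 were then called. DESeq2 called 31 in HFD against control, 28 lower and 3 higher, beside 4736 of all genes. In HFD plus HQHF against HFD it called 20 higher and 4 lower, beside 3880 of all genes. In HFD plus HQHF against control it called 1, beside 72 of all genes. The fit of only the 2 groups compared called 11 in HFD plus HQHF against HFD, beside 2026 of all genes. Leaving out control 1 and HFD 3 left 12 in HFD against control, beside 2369 of all genes. Leaving out 1 library at a time gave 11 to 21 calls in HFD against control, lowest without control 1 and without control 3. It gave 6 to 19 in HFD plus HQHF against HFD, lowest without HFD plus HQHF 2. In those lowest fits the calls among all genes were 1568, 1757 and 803. The 21 calls came without HFD 1, beside 2655 among all genes. Over the fits without 1 library, 9 of the 19 lower calls, 6 of the 15 higher and 0 of the 3 lower with HQHF were always made. Over every 10-liver setting and its reductions Ugt2a3, Ugt3a1 and Ugt1a10 were called in both comparisons, Ugt3a2, Ugt2b1 and Gstt3 in HFD against control, and Sult1b1 in HFD plus HQHF against HFD.

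Among the enzymes named with values in every library some directions turned, none of them for a called difference. In HFD plus HQHF against control these were Gsto1 (0.21) and Sult5a1 (-0.024) with all 12 libraries, and Ugt2b38 (0.17) without control 1 and HFD 3. With library totals they were Sult1a1 in HFD against control (0.091) and Gsta3 (-0.040) and Sult1a1 (-0.11) in HFD plus HQHF against HFD, and over all 49 tested enzymes 5 and 8 turned in these comparisons, 0 of them called with either scaling. With 1 library left out, Gstm1 ranged from -0.12 to 0.74 in HFD against control, and in HFD plus HQHF against control Gsta1 ranged from -1.47 to 0.17, Gsto1 from -0.34 to 0.034, Gstp1 from -0.040 to 0.39, Gstz1 from -0.12 to 0.19, Sult1b1 from -0.081 to 0.39, Sult1a1 from -0.20 to 0.10 and Ugt2b38 from -2.48 to 0.17. The cause of these changes was not tested.

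With the replicate block 17 enzymes were called in HFD against control and 14 in HFD plus HQHF against HFD, beside 2840 and 1719 of all genes. Signs turned for Gstm1 in HFD against control (-0.18) and for Gstp1 (-0.044), Gstz1 (-0.10) and Sult1a1 (0.14) in HFD plus HQHF against control. In a check of pairing the 8 same-numbered pairs of livers correlated at -0.0542 to 0.119. Differently numbered pairs ranged from -0.177 to 0.13. These values cannot settle whether the numbers pair mice, which the labels do not state.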

Other observations

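Many of the enzymes were scarce in the libraries left out of the fits. HFD plus HQHF 3 had no read for 25 of the 62 and was below all 10 livers for 35, and control 2 had no read for 20 and was below all 10 livers for 31, on library totals.

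The families took different shares of the counts of the 10 livers: the UGTs 0.187% to 0.394%, the GSTs 0.441% to 1.17% and the SULTs 0.0330% to 0.0878%.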
